A study of Nicotiana tabacum with 36 samples.

Results

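The most shoot-specific gene models of tobacco (*Nicotiana tabacum*) cv. K326 are described here. They were chosen from 69500 predicted gene models by their expression in TPM (a level per length of the gene model, scaled to an equal total in every library). The median over the 12 libraries of a tissue was taken for whole shoot, shoot apex and root. A gene model was kept when its shoot median was at least 10 TPM and, after 0.1 TPM was added to each value, at least 4 times the higher of the other two medians. Of the 264 gene models that passed, the 200 with the highest ratio are the members. The same level and ratio were passed by 530 gene models for shoot apex and by 1785 for root. Every comparison of shoot with the other tissues is therefore a description of how the members were chosen, and no test of it is given.

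The libraries came from shoot, shoot apex and root of 8 week old plants of this single cultivar, with no treatment or mutation, grown in long days (18 h light, 6 h dark). Tissues were harvested at dawn (ZT0) and 6, 12 and 18 h later (ZT6, ZT12, ZT18), with 3 biological replicates per tissue and time, 36 libraries together. How many plants stand behind a library is not given in the sources used here, so the p-values measure the spread between these samples. Each library is bulk RNA, in which fewer cells of a type and less RNA per cell cannot be told apart.

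The shoot of a grown plant is mostly leaf and stem, where photosynthesis, the sugar metabolism that follows it and much of the defence chemistry of the leaf take place. The shoot apex holds the meristem and the youngest leaf primordia, whose cells divide and have few mature chloroplasts, and the root lives on sugar imported from the leaves. In leaves, many transcripts cycle over the day under the joint control of light and the circadian clock. The members are known only by identifier: neither the deposited files nor the gene table of the species pairs any of them with a name, so no role is given to a member and the tissue labels could not be checked against named markers.

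Expected counts per library were between 4125090 and 21265992. Shoot ZT6 replicate 1 and shoot ZT18 replicate 2 stood apart from the other libraries. In shoot ZT6 replicate 1 the 10 most abundant gene models took 36.6% of 4438627 counts, and 0 of these 10 are members. In shoot ZT18 replicate 2 they took 12.2% of 4125090 counts, against 2.41% to 5.25% in the other 10 shoot libraries. Counts, spreads and fold changes that use either library are given again without both where they changed a call or moved. In root, ZT6 replicate 1 had 4787850 counts and ZT18 replicate 2 had 13332241. Both are listed with a low share of mapped reads in the study's read statistics, the ZT18 library with the lowest of the root libraries. For root ZT18 replicate 2 those statistics list far fewer mapped reads than the counts used here. They may therefore not describe that library as used here. They also give shoot ZT6 replicate 1 and shoot ZT18 replicate 2 the lowest shares of mapped reads and the highest duplication of the shoot libraries. Root ZT6 replicate 1 was the highest of its 3 replicates on TPM in 139 members, and in 20.4% of the 17990 gene models with a shoot median of at least 10 TPM. With both root libraries left out of the root medians, 196 of the 200 members were chosen again.

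The members covered a wide range of levels. Shoot medians ran between 10.05 and 7923 TPM with a median of 33.6 TPM, and 41 members reached 100 TPM while 59 stayed under 20 TPM. The apex medians of the same members had a median of 1.71 TPM and the root medians 1.70 TPM. The ratio by which members were ranked had a median of 9.69, with 98 members at 10 or more and 15 at 100 or more, up to 649. The last member inside the list was Nitab4.5_0010544g0020.1, with a ratio of 5.02 from medians of 109 TPM in shoot, 10.3 TPM in apex and 21.6 TPM in root. The first gene model outside it was Nitab4.5_0004176g0030.1, with a ratio of 5.001 from 37.3 TPM in shoot, 7.38 TPM in apex and 0.415 TPM in root. A low level in both apex and root, relative to shoot, was required by the rule. The apex median was above the root median in 103 members, the root median above the apex median in 94, and the medians were equal in 3.

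Few members were at 0 outside the shoot. The apex median was 0 TPM in 13 members and the root median in 16, and only 1 member had a count of 0 in all 12 root libraries. The libraries of the shoot stayed above all 24 others in 15 members, where 0.0302% of all gene models (21 of 69500) had this property. Without shoot ZT6 replicate 1 and shoot ZT18 replicate 2, it held for 93 members. The share over all gene models was taken with all 12 shoot libraries only, so none stands beside the 93. The rule that chose the members favours this property in both counts. In the shoot, 155 members were at 1 TPM or more in all 12 libraries and 176 in the other 10.

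The 4 highest ratios belonged to short gene models with very uneven levels between shoot libraries. The members at ranks 6, 7 and 8 were longer, at 1032, 1476 and 1046 bp. Nitab4.5_0005400g0020.1 (483 bp) had the highest ratio. Its shoot levels were 3701, 2447 and 1.5 TPM at ZT0, 109, 1710 and 523 TPM at ZT6, 113, 1508 and 2872 TPM at ZT12, and 23.0, 468 and 821 TPM at ZT18. In the apex it ran between 0.22 and 49.7 TPM with a median of 0.935 TPM, and in root between 0 and 30.4 TPM with a median of 0.605 TPM. The shoot library at 1.5 TPM, ZT0 replicate 3, was thus inside the range of the apex and root libraries, while both other replicates of that time-point were the highest and the third highest of all 12.

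Nitab4.5_0003771g0010.1 (507 bp), second by ratio and second by shoot median (1846 TPM), was low in the same library. Its levels were 10900 and 7711 TPM in shoot ZT0 replicates 1 and 2, against 12.3 TPM in replicate 3, and 214, 4427 and 8679 TPM at ZT12. Nitab4.5_0004861g0040.1 (507 bp) stood at 682, 375 and 0 TPM in the 3 shoot libraries of ZT0, and Nitab4.5_0014031g0010.1 (402 bp) at 107, 67.5 and 0.73 TPM. Both had a root median of 0 TPM, and each was low in the same replicate. Nitab4.5_0000681g0130.1 (465 bp), the fifth by ratio, was steadier, with 124, 122 and 21.3 TPM at ZT0 and a shoot range of 18.4 to 175 TPM. Its apex libraries reached at most 9.60 TPM and its root libraries 8.40 TPM.

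Of the 3 most abundant members, one is Nitab4.5_0003771g0010.1, described above, and the others stood at ranks 179 and 181 by ratio. Nitab4.5_0000037g0340.1 (661 bp) had a shoot median of 7923 TPM, the highest of all gene models in the shoot, and was still at 716 TPM in apex and 1498 TPM in root. Within the shoot it ran from 522 TPM in ZT6 replicate 1 to 42197 TPM in ZT18 replicate 3, and its 3 ZT18 libraries were at 27037, 3993 and 42197 TPM. Nitab4.5_0000359g0110.1 (1924 bp), with a shoot median of 1021 TPM, was even over the day. Apart from ZT6 replicate 1 (125 TPM) and ZT18 replicate 2 (280 TPM), its shoot libraries lay between 627 and 1368 TPM, against 8.39 to 53.4 TPM in apex and 67.6 to 297 TPM in root.

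Summed over the members, the shoot libraries held 2288 to 67339 TPM with a median of 34274 TPM. The sums were 65297, 51072 and 8590 TPM at ZT0, 2288, 37892 and 16864 TPM at ZT6, 13488, 30656 and 43148 TPM at ZT12, and 41183, 12129 and 67339 TPM at ZT18. The apex libraries held 761 to 5294 TPM and the root libraries 1672 to 5366 TPM, so that only shoot ZT6 replicate 1 fell within the range of the other tissues. In that library TPM was low for gene models in general. The median log2 ratio to each model's own shoot median was −3.25 over the members and −3.12 over the 17990 gene models. As a share of all TPM, the members made up 0.229% to 6.73% in shoot, 0.0761% to 0.529% in apex and 0.167% to 0.537% in root.

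**Figure D1:**
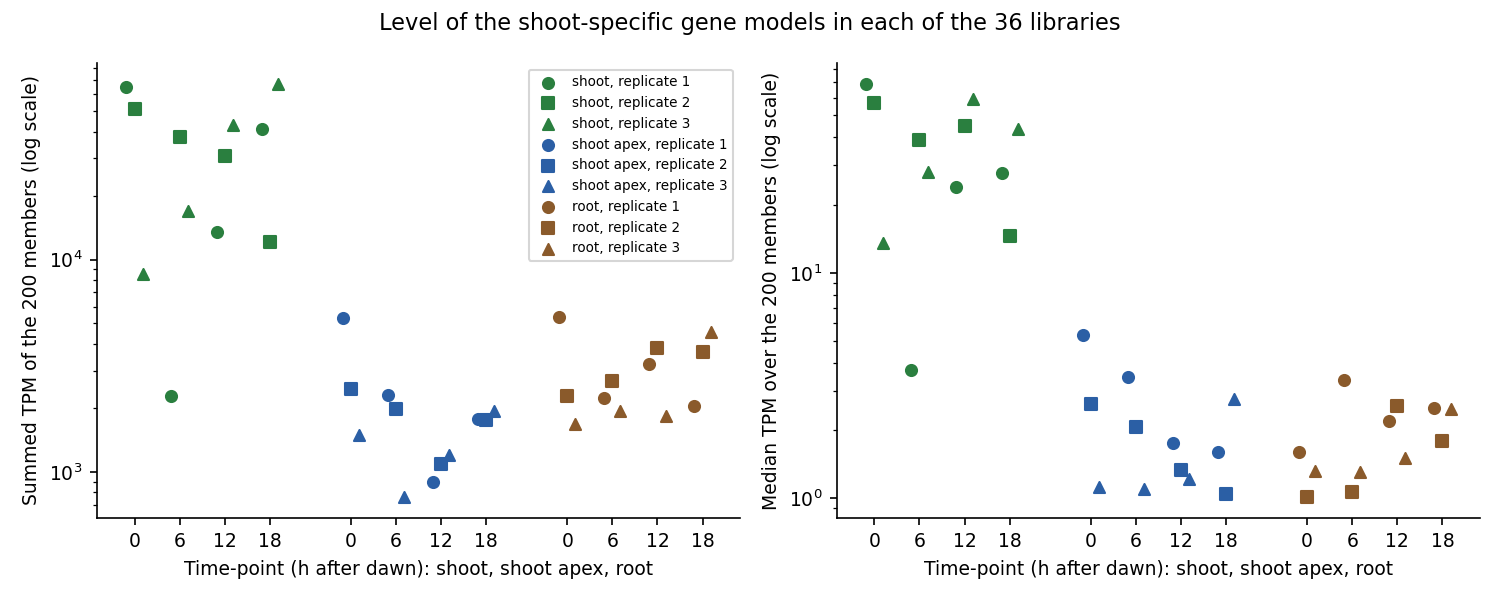
Summed TPM (left) and median TPM (right) of the 200 members in each of the 36 libraries, on log axes, by time-point (h after dawn) for shoot, shoot apex and root; each point is 1 library and its shape gives the replicate. The shoot sums run between 2288 and 67339 TPM, and at ZT0 replicate 3 holds 8590 TPM against 65297 and 51072 TPM in replicates 1 and 2.

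The spread between shoot replicates was wide for the members as a group. It was measured as the SD of log2 levels within time-points, on counts per length scaled by TMM (a normalisation that sets libraries to a common level from the bulk of their gene models). The median SD was 0.93 over the members, against 0.42 over the 17990 gene models with a shoot median of at least 10 TPM. Without shoot ZT6 replicate 1 and ZT18 replicate 2 it was 0.91, against 0.38. On TPM the median SD was 1.40 over the members, against 1.06, with all 12 libraries, and 0.83 against 0.38 with 10. No test was made of this difference, since the members share libraries.

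Without shoot ZT0 replicate 3 the median SD was 0.74, against 0.37 over the 17990, and leaving out any other shoot library in turn gave 0.89 to 0.97. Shoot ZT0 replicate 3 was the lowest of the 3 replicates of its time-point in 173 members on the TMM scale, and in 56.6% of the 17990 gene models. Shoot ZT12 replicate 1 was the lowest of its time-point in 149 members, and in 53.7% of the 17990. The log2 ratio of ZT0 replicate 3 to the mean of replicates 1 and 2 had a median of −1.96 over the members and −0.10 over the 17990. It was lower by 4-fold or more in 99 members (49.5%), against 3.81% of the 17990, and by 2- to 4-fold in 39 members (19.5%), against 15.3%. It was within 2-fold in 53 members (26.5% against 68.0%) and over 2-fold higher in 9 (4.5% against 13.0%). The pair of replicates 1 and 2 differed little, with a median log2 ratio of 0.30 over the members and −0.01 over the 17990.

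The 99 members that were 4-fold or more lower in shoot ZT0 replicate 3 had median levels of 106, 76.9 and 4.42 TPM in its 3 replicates. They were defined by the 3 shoot libraries of ZT0, so only their behaviour at the other time-points was not fixed by the choice. Relative to each member's own median over the shoot libraries, on the TMM-scaled log2 scale, their median was −1.63 in ZT12 replicate 1, −1.37 in ZT18 replicate 1 and −0.999 in ZT6 replicate 3. It was 0.95 in ZT12 replicate 3. In ZT0 replicate 1, which was part of the choice, it was 1.34. Libraries of ZT6, ZT12 and ZT18 thus also stood on the low side for these members. The median of the 53 members within 2-fold in ZT0 replicate 3 lay between −0.62 and 0.37 in each of the 12 libraries.

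A measure of the libraries moved with this pattern. Libraries fell into 2 classes according to whether longer or shorter gene models took their counts, a split made from the data at the widest gap and not a condition of the study. Shoot ZT0 replicate 3, ZT6 replicate 3 and ZT12 replicate 1 were the 3 shoot libraries with counts on longer models, and over all members their medians were −1.59, −0.64 and −0.74 on the scale above. The other 9 shoot libraries lay between −0.50 and 0.76, among them ZT18 replicate 1, in which the 99 members were also low. The members had a median length of 910 bp, against 1180 bp for the 17990 gene models, and the 99 members a median of 777 bp. The part of this measure in the spread was not tested. The median ratio of the members was 7.41 when taken only from libraries with counts on longer models, where 165 members still reached 4, and 10.4 from the others, where 192 did. Taken within single time-points, the median ratio was 11.9 (ZT0), 7.10 (ZT6), 11.8 (ZT12) and 9.08 (ZT18).

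**Figure D2:**
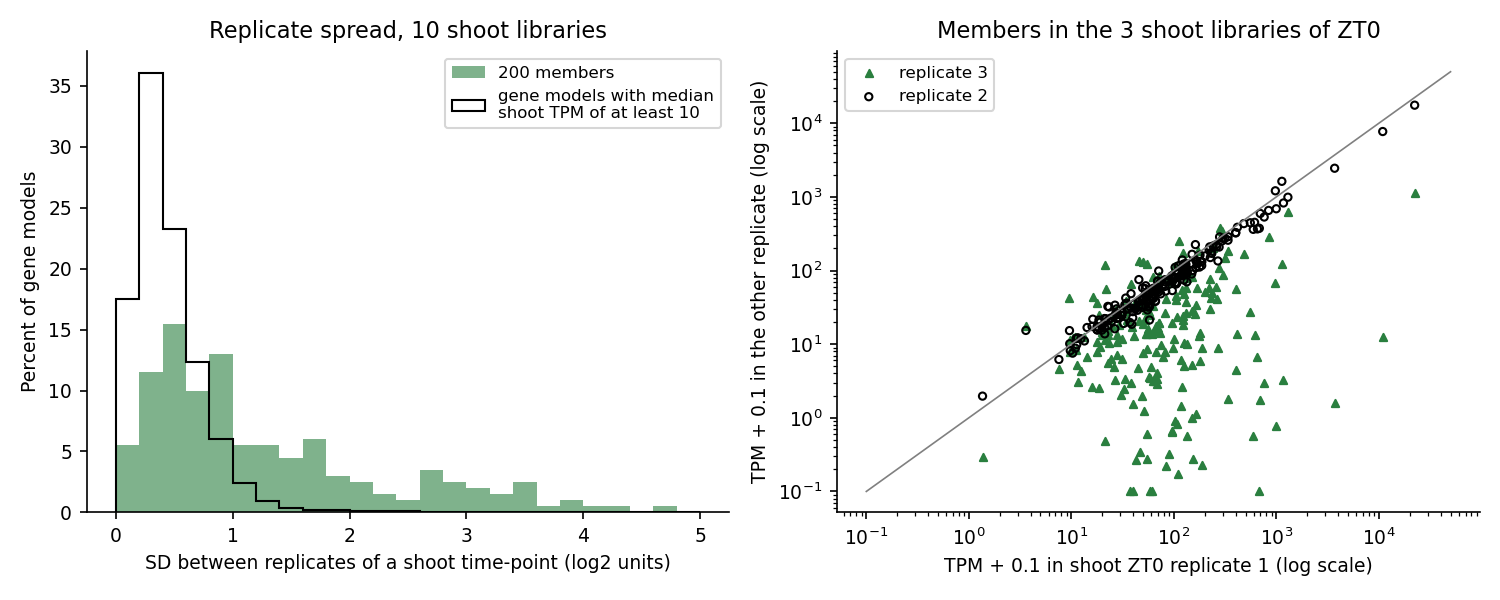
Left, the percent of gene models at each SD between shoot replicates (log2 units, TMM-scaled, 10 shoot libraries), for the 200 members (filled) and the 17990 gene models with a shoot median of at least 10 TPM (line), with medians of 0.91 and 0.38. Right, TPM of each member in shoot ZT0 replicate 3 (triangles) and replicate 2 (circles) against replicate 1, on log axes with 0.1 TPM added; circles follow the line of equality, while 99 triangles belong to members at least 4-fold below the mean of replicates 1 and 2.

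Members tended to share their order of libraries. Over the 12 shoot libraries, Pearson's r between the TMM-scaled log2 levels of 2 members had a median of 0.40 over 19900 pairs, with quartiles of 0.07 and 0.66. An r above 0.7 with the median profile of the list was reached by 101 members, and 16 were below 0. That profile is made from the same members, which raises r. Over the 10 shoot libraries without ZT6 replicate 1 and ZT18 replicate 2 the median was 0.48, with 112 members above 0.7 and 23 below 0. These correlations describe points that share libraries, depth and the length measure above. They were not taken over other gene models, so whether such likeness is particular to the members was not tested. On the assembly, the 200 members lay on 184 scaffolds. Of the members, 30 shared 14 scaffolds, with at most 3 on one. There were 5 pairs of members that carried neighbouring gene numbers, and no such counts of position were taken over other gene models. Within these pairs r was taken on log2 TPM over the 12 shoot libraries, and was between 0.88 and 0.99. It is on another scale than the TMM-scaled r above, so these values are not compared. The strongest was Nitab4.5_0008527g0010.1 with Nitab4.5_0008527g0020.1, 1032 and 963 bp long and with shoot medians of 111 and 51.8 TPM. RSEM, which the authors used, divides a read that matches several models between them, so levels of near-identical neighbours or homeologous copies are uncertain one by one.

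**Figure D3:**
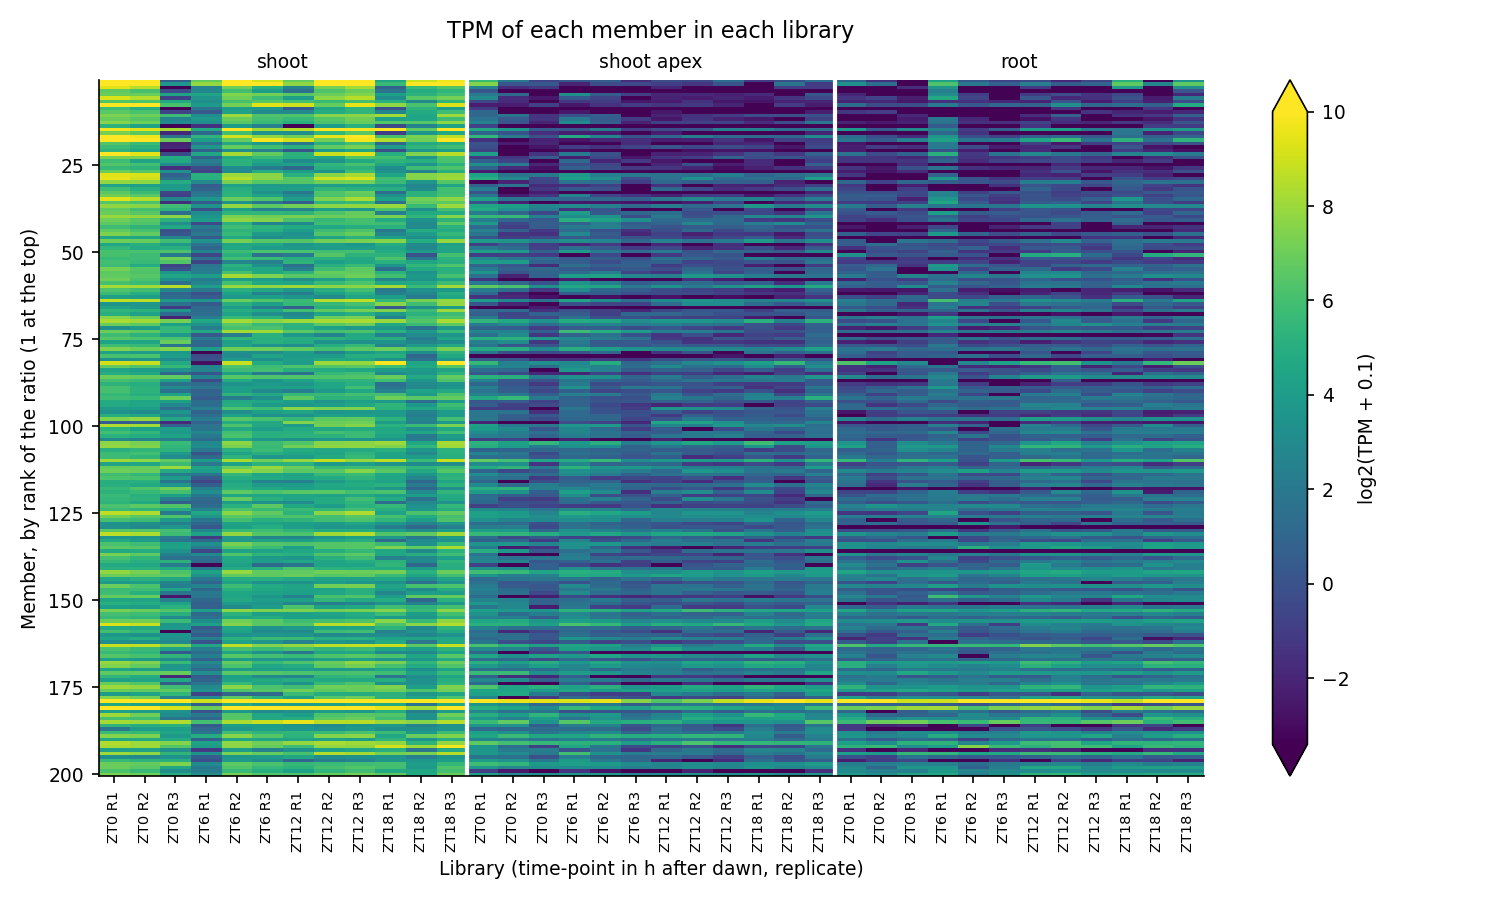
TPM of each of the 200 members (rows, by rank of the ratio) in each of the 36 libraries (columns, by tissue, time-point in h after dawn and replicate), as log2(TPM + 0.1) on the colour scale. The shoot columns are mostly bright, and the apex and root columns are dark at most ranks. The dimmest shoot columns are ZT6 replicate 1, ZT0 replicate 3 and ZT18 replicate 2, with a median over the members of 3.72, 13.6 and 14.6 TPM. The 99 members that are 4-fold or more lower in ZT0 replicate 3 are also dimmer in ZT12 replicate 1 and ZT18 replicate 1.

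Differences between the time-points of the shoot were not what chose the members and were tested by the quasi-likelihood test of edgeR, with Benjamini-Hochberg adjustment over 44594 gene models. All 200 members passed the filter on low counts. Over the 4 time-points 17 members were called (8.5%), beside 8.02% of all gene models tested. An unadjusted p under 0.05 was reached by 32 members, and by 18.7% of all gene models tested. The members called had their highest median at ZT0 in 6 cases, ZT6 in 3, ZT12 in 3 and ZT18 in 5. Over all members, called or not, the highest shoot median was at ZT0 for 87 (43.5%), ZT6 for 31, ZT12 for 32 and ZT18 for 50, where 28.6% of the 17990 gene models were highest at ZT0. Of the 99 members that were 4-fold or more lower in ZT0 replicate 3, 2 were called. The share of the variation between the 12 shoot libraries that lay between time-points was taken without correction for the number of groups. Such a share is above 0 even where time has no effect, and is higher with fewer libraries, so it does not measure an effect of time. Its median was 21.7% over the members and 27.8% over the 17990. Without shoot ZT6 replicate 1 and ZT18 replicate 2 these were 25.3% and 36.2%. The members called were then 15 over the 4 time-points (beside 6.38% of all gene models), 6 at ZT6 against ZT0 (beside 2.76%), 9 at ZT12 (beside 4.66%) and 4 at ZT18 (beside 1.99%).

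At ZT6 against ZT0, 3 members rose (1.5%, beside 2.58% of all tested) and 3 fell (1.5%, beside 1.25%), 6 in all (beside 3.83%). None of the 3 that rose (0 of 3) had its ZT6 libraries clear of its ZT0 libraries, whereas all 3 that fell did. Over all gene models called, the libraries were clear of each other in 5.73% of those that rose and 94.2% of those that fell. Overlap was judged on TPM. On that scale shoot ZT6 replicate 1 was the lowest of its time-point in 99.7% of the 17990 gene models. Clear rises and clear falls at ZT6 are therefore bound to the low TPM of this library. Nitab4.5_0000130g0300.1 stood at 0.55, 6.46 and 5.22 TPM at ZT6, against 62.2, 51.3 and 81.4 TPM at ZT0. The low point was confined to ZT6, with 17.9 to 40.4 TPM at ZT12 and 22.7 to 34.3 TPM at ZT18. Its log2 fold change was −3.53 (SE 0.52) with an adjusted p of 6.1e-05 by edgeR's quasi-likelihood test. Nitab4.5_0001255g0020.1 was at 0.52, 1.93 and 2.24 TPM at ZT6, against 16.1, 21.8 and 44.0 TPM at ZT0, and returned to 29.4 to 51.0 TPM at ZT12. Its log2 fold change was −3.30 (SE 0.62) with an adjusted p of 0.00123 by edgeR. In both members the shoot library that stands apart, ZT6 replicate 1, was the lowest. Without it and ZT18 replicate 2, the log2 fold changes were −3.46 and −3.70, and both members were still called.

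At ZT12 against ZT0, 2 members rose (1%, beside 2.51%) and 4 fell (2%, beside 1.61%), 6 in all (beside 4.13%), and in all 6 the libraries of ZT12 and ZT0 did not overlap, as in 98.8% of all gene models that rose and 91.4% of those that fell. Nitab4.5_0005579g0030.1 had the largest change of all members called in the shoot. It was at 174, 126 and 134 TPM at ZT12, against 1.26, 1.87 and 0.19 TPM at ZT0, a log2 fold change of 6.92 (SE 0.80) with an adjusted p of 8.06e-08 by edgeR. The levels were intermediate at ZT6 (1.86, 30.1 and 25.6 TPM) and at ZT18 (16.4, 5.25 and 13.1 TPM), where the low value at ZT6 was the library that stands apart. Nitab4.5_0012292g0020.1 was also highest at ZT12, with 195, 155 and 173 TPM at ZT12, against 15.8, 17.3 and 2.48 TPM at ZT0. Its log2 fold change was 3.79 (SE 0.65) with an adjusted p of 0.000316 by edgeR.

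The largest falls at ZT12 were smaller. Nitab4.5_0000601g0080.1 was at 1.92, 4.78 and 6.08 TPM at ZT12, against 49.2, 39.9 and 33.0 TPM at ZT0, a log2 fold change of −3.26 (SE 0.81) with an adjusted p of 0.0129 by edgeR. Without shoot ZT12 replicate 1 the adjusted p was 0.102, and without ZT12 replicate 2 it was 0.0574. Nitab4.5_0000755g0020.1 was at 6.35, 4.79 and 5.77 TPM at ZT12, against 34.7, 29.9 and 21.0 TPM at ZT0, a log2 fold change of −2.40 (SE 0.67) with an adjusted p of 0.0315 by edgeR. This call was lost in 5 of the 12 fits that left out 1 shoot library, in which the adjusted p reached 0.141. The count of members called at ZT12 was 2 without shoot ZT12 replicate 1 (beside 1166 of 45313 gene models) and 2 without ZT12 replicate 2 (beside 1238 of 45327).

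At ZT18, the end of the light period, 3 members rose against ZT0 (1.5%, beside 0.933%) and 3 fell (1.5%, beside 1.06%), 6 in all (beside 1.99%), again without overlap of the libraries, as in 56.5% of all gene models that rose and 99.6% of those that fell. On TPM, shoot ZT18 replicate 2 was the lowest of its time-point in 85.1% of the 17990 gene models. Nitab4.5_0001780g0010.1 was at 199, 58.2 and 224 TPM at ZT18, against 11.4, 12.1 and 2.99 TPM at ZT0, a log2 fold change of 4.38 (SE 0.83) with an adjusted p of 0.0022 by edgeR. Its ZT12 libraries, at 46.4, 46.0 and 68.9 TPM, lay between these. Nitab4.5_0005579g0030.1, highest at ZT12, was still above its ZT0 level at ZT18, with a log2 fold change of 3.61 (SE 0.69) and an adjusted p of 0.00122 by edgeR. Nitab4.5_0001480g0110.1 was at 13.0, 1.93 and 8.83 TPM at ZT18, against 45.5, 75.2 and 136 TPM at ZT0, a log2 fold change of −3.18 (SE 0.70) with an adjusted p of 0.00775 by edgeR. Without shoot ZT18 replicate 2 its adjusted p was 0.0509. Nitab4.5_0003695g0030.1 was at 32.3, 4.32 and 21.4 TPM at ZT18, against 88.7, 72.7 and 75.0 TPM at ZT0, a log2 fold change of −1.82 (SE 0.48) with an adjusted p of 0.0412 by edgeR. This call was lost in 6 of the 12 fits without 1 shoot library, and without both libraries that stand apart its log2 fold change was −1.44 with an adjusted p of 0.116. The count of members called at ZT18 was 3 without shoot ZT0 replicate 3 (beside 584 of 45309 gene models). It was 3 without ZT18 replicate 2 (beside 831 of 45247) and 3 without ZT18 replicate 3 (beside 594 of 45318).

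**Figure D4:**
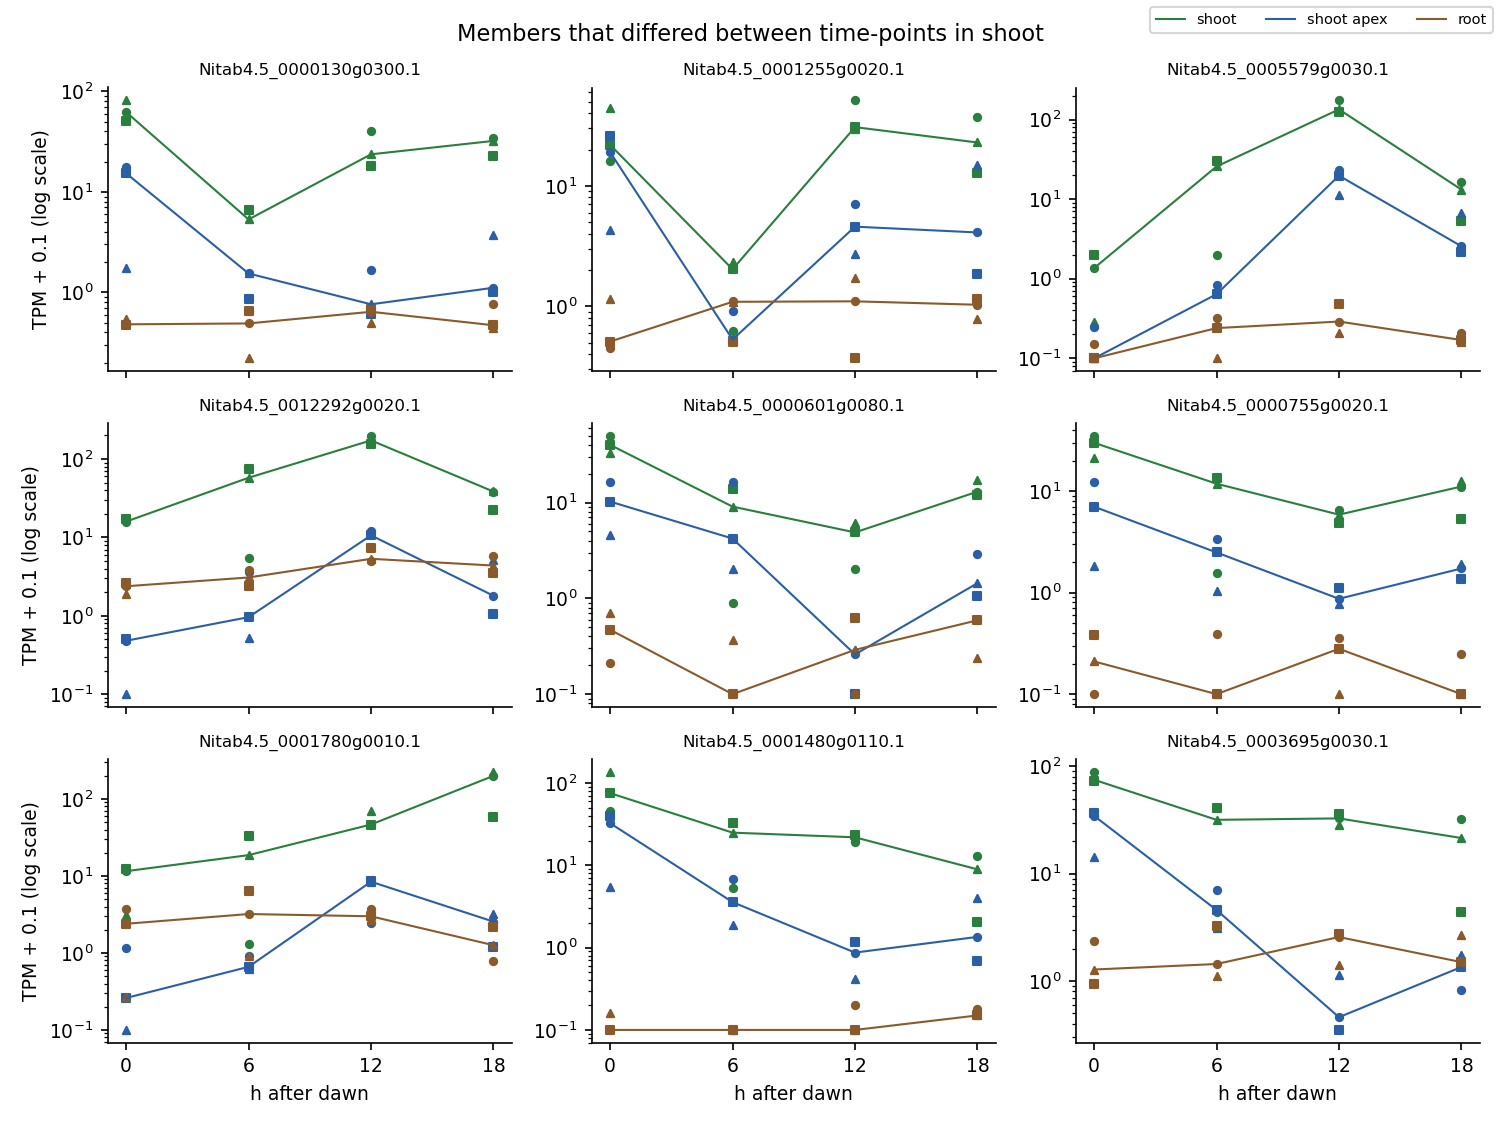
TPM (0.1 added, log axes) of the 9 members named from the shoot time-points, in shoot (green), shoot apex (blue) and root (brown), by h after dawn; points are libraries, with circles, squares and triangles for replicates 1, 2 and 3, and lines join the medians. Nitab4.5_0005579g0030.1 is highest at ZT12, at 126 to 174 TPM in shoot and 11.2 to 23.2 TPM in shoot apex, and Nitab4.5_0000130g0300.1 is lowest at ZT6 in shoot.

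In the shoot apex, where the members are low by the rule, most of the calls were of lower levels after ZT0. Over the 4 time-points 37 members were called by edgeR (18.5%), beside 5.39% of all gene models, and 13 were called in both tissues. These are 76.5% of the 17 called in shoot and 35.1% of the 37 called in apex, where over all gene models the shared calls were 39.7% of those in shoot and 59.1% of those in apex. The filter on low counts took all 36 libraries together. With the apex libraries alone 154 members passed it, and 19 of these were called (beside 3.58% of all gene models). Against ZT0, 4 members rose at ZT6 (2%, beside 1.59%) and 10 fell (5%, beside 1.2%). At ZT12, 5 rose (2.5%, beside 2.62%) and 35 fell (17.5%, beside 3%), and at ZT18, 2 rose (1%, beside 0.565%) and 9 fell (4.5%, beside 1.16%). In either direction these were 14 members at ZT6 (beside 2.79%), 40 at ZT12 (beside 5.62%) and 11 at ZT18 (beside 1.72%). The contrasts share the 3 apex libraries of ZT0. The median log2 fold change of the members was −0.64 at ZT6, −1.31 at ZT12 and −0.95 at ZT18, where that of all gene models was 0.00, 0.03 and 0.04. The highest apex median fell at ZT0 in 114 members (57%), against 26.0% of the 17990. Ties were counted at ZT0, among them members with an apex median of 0 at every time-point.

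The counts in apex moved with single libraries of ZT0 and ZT12. Summed over the members, the apex libraries of ZT0 held 5294, 2470 and 1486 TPM, while the apex libraries of ZT12 held 896, 1095 and 1204 TPM and those of ZT18 1768, 1757 and 1938 TPM. Of the 35 members that fell at ZT12, 16 had libraries that did not overlap those of ZT0, where 77.1% of all gene models that fell there did not overlap. Without apex ZT0 replicate 1, 22 members were called over the 4 time-points, 9 at ZT6, 22 at ZT12 and 7 at ZT18. Without apex ZT0 replicate 2, the counts were 21, 9 and 25 over the 4 time-points, at ZT6 and at ZT12, and without apex ZT0 replicate 3 they were 45 over the 4 time-points, 15 at ZT6, 48 at ZT12 and 20 at ZT18. Without apex ZT12 replicate 2, 23 members were called over the 4 time-points and 20 at ZT12, and without apex ZT12 replicate 3, 24 and 21. Without apex ZT6 replicate 1, 9 were called at ZT6. All of these were refits of the edgeR test, in which the share of all gene models called was 3.53% to 4.59% over the 4 time-points for the libraries of ZT0 and 3.99% to 4.12% for these 2 of ZT12. Without a library of ZT0, 704 to 1043 gene models were called at ZT6, 1561 to 2117 at ZT12 and 481 to 741 at ZT18. At ZT12, 1679 were called without apex ZT12 replicate 2 and 1553 without replicate 3. At ZT6, 641 were called without apex ZT6 replicate 1.

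The members named next in the apex were chosen after their values were seen. Nitab4.5_0005579g0030.1 was at 23.2, 19.6 and 11.2 TPM in the apex at ZT12, against 0.15, 0 and 0 TPM at ZT0. Its expected counts at ZT0 were 1.98, 0 and 0, so no fold change is given. Nitab4.5_0001255g0020.1, which fell at ZT6 in shoot, had 0.82, 0.42 and 0.43 TPM in the apex at ZT6, against 18.9, 26.0 and 4.2 TPM at ZT0. Its log2 fold change in the apex was −5.06 (SE 0.66) with an adjusted p of 1.4e-05 by edgeR. Nitab4.5_0001079g0120.1 was the member that rose most in the apex at ZT6, with 17.3, 18.9 and 6.92 TPM, against 2.75, 0.14 and 1.60 TPM at ZT0. Its log2 fold change was 3.04 (SE 0.73) with an adjusted p of 0.0173 by edgeR, a call lost in 4 of the 12 fits without 1 apex library. In shoot it was at 16.9, 291 and 171 TPM at ZT6, against 106, 91.8 and 22.9 TPM at ZT0, with an adjusted p of 0.30 by edgeR.

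A test of whether the change against ZT0 differed between shoot and apex called 1 member, at ZT12 (0.5%, beside 0.0448% of all gene models). Nitab4.5_0003695g0030.1 was at 32.7, 36.3 and 28.1 TPM in shoot at ZT12, against 88.7, 72.7 and 75.0 TPM at ZT0. In the apex it was at 0.36, 0.25 and 1.03 TPM at ZT12, against 34.5, 36.8 and 14.2 TPM at ZT0. The log2 fold change was −1.32 in shoot (SE 0.47) and −5.73 in apex (SE 0.59). The difference between them was 4.41 (SE 0.71), with an adjusted p of 0.0102 by edgeR. The apex levels at ZT12 were low, so the size of the apex fold change and of the difference is uncertain. At ZT6 and at ZT18 this test called 0 members (beside 0.0112% and 0.00448% of all gene models), with an unadjusted p under 0.05 in 16 and in 23 members (4.19% and 4.02% of all gene models). At ZT12 an unadjusted p under 0.05 was reached by 49 members and by 6.83% of all gene models.

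In root no member was called over the 4 time-points by edgeR's quasi-likelihood test (0 of 200, beside 0.195% of all gene models). An unadjusted p under 0.05 was reached by 35 of the 200 members, and by 8.12% of all gene models. DESeq2's likelihood ratio test called 2 members, beside 0.805% of all gene models. With root libraries alone 146 members passed the filter, and edgeR called 0 of them (beside 9 of 40475 gene models). Without root ZT6 replicate 1 edgeR called 1 member (beside 149 of 45259 gene models), and likewise 1 without root ZT18 replicate 1 (beside 175 of 45332). Nitab4.5_0000130g0300.1, which fell at ZT6 in shoot, lay between 0.12 and 0.66 TPM over all 12 root libraries, with a median of 0.395 TPM.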

How the data were processed

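RNA was extracted from roots, whole shoots and shoot apices of cultivar K326, and random-primed libraries were sequenced on an Illumina HiSeq2000 as single reads of 100 bp. The authors trimmed the reads and mapped them with Bowtie v1.1.0 to the 69500 gene models predicted on assembly Nitab4.5, and CASAVA v1.9.4 is also listed in the submitters' processing notes. With RSEM v1.2.7 the authors estimated an expected count per gene model, which is not normalised and need not be whole. The deposited TPM divides that count by model length and sets every library to an equal total. A table of the whole series was not used here.

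Groups were taken from the sample labels. Members were chosen from TPM by the rule given above. The members, the rule and the gene models to be named were chosen with earlier results of these data known. For tests, expected counts were rounded, filtered by filterByExpr (minimum count 10, minimum total 15), which kept 44594 gene models, scaled with TMM factors and modelled in edgeR 4.0.16 with glmQLFit, using 12 groups of tissue and time-point over all 36 libraries and no replicate block. Tests were two-sided, with a threshold of 0.05 on p-values adjusted by Benjamini-Hochberg over all 44594. The SE of a log2 fold change was obtained from the same fit. The fit was run on simulated counts with the same setting of spread for every gene model and no library that stands apart. That run therefore does not describe how the fit behaves on data as uneven as these. Contrasts of time-points in the apex, and of their difference from those in shoot, were added after the data had been seen.

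The members named are the 2 with the largest rise and the 2 with the largest fall in each shoot contrast with ZT0, among those called whose libraries do not overlap, with the 5 highest ratios, the 3 highest shoot medians and the gene models at the edge of the list. Others are named as chosen after their values were seen. Of 69500 identifiers, 0 were found in RefSeq's table of tobacco genes, and no names, sequences or positions are therefore given. Alternatives covered the choice of members, normalisation, test, filter, replicate block, libraries in the fit, the class by length as a term and each library left out, run in R 4.3.3 with limma 3.58.1 and DESeq2 1.42.0. Tables were made in Python 3.11.15 with pandas 2.3.3.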

Additional observations from a re-analysis of the deposited data

Results flagged for a closer look

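The change of Nitab4.5_0003695g0030.1 at ZT12 against ZT0 differed between shoot and shoot apex in a test of the difference itself. The log2 fold change was 4.41 higher in shoot than in apex (SE 0.71), with −1.32 in shoot and −5.73 in apex and an adjusted p of 0.0102 by edgeR's quasi-likelihood test. All 3 shoot libraries of ZT12 (28.1 to 36.3 TPM) and all 3 apex libraries (0.25 to 1.03 TPM) were below those of ZT0 in their tissue. With apex levels this low at ZT12, the size of the difference is uncertain. Leaving out each of the 24 shoot and apex libraries in turn gave differences of 4.10 to 5.38 with an adjusted p of at most 0.0421. Of 9 other settings, 7 kept the call. It was lost by limma on log2(TPM + 1), with a difference of 2.92 and an adjusted p of 0.954, and on log2(TPM + 0.1), with 4.26 and an adjusted p of 1. Of all 44594 gene models, 20 (0.0448%) were called in this test.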

How the results depend on the processing

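Fitting only the libraries of a tissue gave 10 members called at ZT6, 10 at ZT12 and 10 at ZT18 in shoot. These stand beside 970, 1268 and 605 of 39400 gene models. In apex, where 154 members passed the filter, it gave 19 over the 4 time-points, 8 at ZT6 and 16 at ZT12. These stand beside 1408, 822 and 1708 of 39368 gene models. limma on log2(TPM + 1) gave 11 in apex over the 4 time-points, 4 at ZT6, 10 at ZT12 and 3 at ZT18. Of 44594 gene models it called 622, 220, 635 and 206 there. On log2(TPM + 0.1) it gave 8 over the 4 time-points of shoot, 3 at ZT12 and 3 at ZT18, beside 993, 397 and 216 gene models. In apex it gave 10 over the 4 time-points, 4 at ZT6, 10 at ZT12 and 4 at ZT18, beside 429, 137, 404 and 160. DESeq2 gave 10 in shoot at ZT12 and 2 over the time-points of root, beside 2573 and 359 gene models. In apex it gave 24 at ZT6 and 23 at ZT18, beside 2087 and 1156. Leaving out each library in turn gave 13 to 18 members over the 4 time-points of shoot, 4 to 6 at ZT6, 2 to 8 at ZT12 and 3 to 6 at ZT18. Gene models called in these fits were 2664 to 4133, 1150 to 2052, 1166 to 1975 and 584 to 947. In apex it gave 21 to 45 over the 4 time-points, 9 to 15 at ZT6, 20 to 48 at ZT12 and 7 to 20 at ZT18, and in root 0 to 1. Gene models called were 1599 to 2711, 641 to 1331, 1553 to 2523 and 481 to 796 in apex, and 26 to 175 in root. The share of all gene models called over the 4 time-points of apex was 3.58% with the libraries of the tissue only, 1.4% and 0.962% by limma with 1 and 0.1 TPM added, and 8.5% by DESeq2. The cause of these shifts was not tested. With the class by length as a term, 23 members were called in shoot (beside 12.6% of all gene models) and 46 in apex (beside 7.68%). The other counts stayed within 1.5 times those reported.

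Replicate numbers are shared between groups, but same-numbered samples did not deviate together. The median correlation was −0.00 over 198 pairs with the same number, and 0.01 over 396 pairs with different numbers. With the replicate block, 15 members were called over the time-points of shoot, 6 at each of ZT6, ZT12 and ZT18, 32 in apex and 0 in root, and in apex 14 at ZT6, 37 at ZT12 and 11 at ZT18. Of all 44594 gene models, 3076 were called in shoot (1527, 1728 and 834 at ZT6, ZT12 and ZT18) and 51 in root. In apex 2213 were called, with 1174, 2385 and 737 at the same time-points. Nitab4.5_0003695g0030.1 at ZT18 in shoot then had an adjusted p of 0.0543 by edgeR.

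Of 352 refits of 16 fold changes of members, 327 stayed past the threshold, 25 did not and 0 changed sign. The 16 include apex fold changes that are not given above, chosen after their values were seen. They are those of Nitab4.5_0005579g0030.1 at ZT12 and ZT18, Nitab4.5_0000601g0080.1 at ZT12 and Nitab4.5_0003351g0110.1 at ZT18. For Nitab4.5_0005579g0030.1 the apex counts at ZT0 were near 0. With the mean in place of the median, 117 of the 200 members were chosen again. With the other 5 changes to the rule, 152 to 196 were. On TPM with all 12 shoot libraries the median SD between replicates of the members was 1.40, in place of 0.93.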
